A study of Saccharomyces cerevisiae with 34 samples.

Results

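Nascent RNA of Saccharomyces cerevisiae carrying the KIN28 allele kin28is was compared between cultures given the irreversible inhibitor CMK and cultures given its solvent, DMSO. The comparison used 7 of the 34 libraries of the series, chosen by their labels: 4 with CMK (replicates 1 to 4) and 3 with DMSO (replicates 1 to 3). All 7 came from strain BY4741 with kin28is, grown in dextrose medium without histidine, so every culture of the comparison carried the altered kinase and none had the wild-type one. Exposure lasted 1 h. CMK replicate 1 received 2 µM, replicates 2 to 4 received 5 µM, and DMSO replicate 1 belongs to the 2 µM set and DMSO replicates 2 and 3 to the 5 µM set. All 7 cultures were labelled with 5 mM 4-thiouracil (4tU) for 6 min. 4tU enters newly made RNA, which was then tagged with biotin and purified. Before lysis each culture received a fixed proportion of Schizosaccharomyces pombe cells, likewise labelled, so that reads of this distant yeast serve as an external reference. Wild-type (WT) BY4741 cultures with CMK or DMSO (replicate 1 at 2 µM, replicate 2 at 5 µM) and a WT DMSO culture of the 5 µM set that received no 4tU are used beside it. The labels do not say whether replicates came from separate cultures or clones, so the spread between them may be technical.

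Kin28 is the kinase subunit of TFIIH, the general transcription factor that opens promoter DNA for RNA polymerase II. With its cyclin Ccl1 and the assembly factor Tfb3 it phosphorylates the C-terminal domain (CTD) of the largest polymerase subunit, mainly at serine 5 of the repeat, as the polymerase leaves the promoter. That mark helps release Mediator and recruits the capping enzyme, and later CTD kinases and phosphatases change it during elongation and termination. A pulse of 4tU reads RNA made within the labelling window, while total RNA mostly reports molecules made earlier. In bulk cultures, fewer labelled cells and less labelled RNA per cell cannot be told apart.

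The 7 libraries held 953317 to 14734545 reads over both species. The 5 libraries at 5 µM differed from the 2 at 2 µM in their makeup: S. pombe took 36.7% to 78.3% of reads at 5 µM and 3.02% and 6.71% at 2 µM. Dose therefore cannot be told apart from replicate set. The CMK libraries at 5 µM held 323133, 380778 and 690984 S. cerevisiae reads, and a gene with few reads there is correspondingly imprecise. BY4741 is a haploid of mating type a, and its markers were present: 9 a-specific and haploid mating genes summed to 1865 to 3676 reads per 1e6 S. cerevisiae reads (CPM) in the 7 libraries, against 41.2 to 149 CPM for 4 alpha-specific genes. The library without 4tU had 12.6% S. cerevisiae reads (95% exact Clopper-Pearson interval 12.5% to 12.6%, counting error only), which is RNA recovered without label.

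The first question was how much RNA synthesis as a whole fell, read as S. cerevisiae reads per S. pombe read. With DMSO this ratio was 32.1 in replicate 1, 1.21 in replicate 2 and 1.72 in replicate 3. With CMK it was 13.9, 0.513 and 0.508 in the same replicates and 0.277 in replicate 4. Within each set the CMK libraries lay below the DMSO libraries, but the 2 µM CMK library lay above both DMSO libraries at 5 µM, so the pooled groups overlapped. Libraries are set in pairs by replicate number because the number separates the doses; the labels do not say that equal numbers share a culture or a day. Within these pairs the ratio was 2.31-fold, 2.35-fold and 3.39-fold lower, and CMK replicate 4 was 5.21-fold below the mean of DMSO replicates 2 and 3. As log2 values the pairs averaged -1.40 ± 0.31 (SD, n = 3), lower in 3 of 3, with p = 0.25 in the two-sided exact paired permutation test, the smallest value 3 pairs allow. Unpaired over all 7 libraries the difference was -2.02 and the exact permutation p was 0.371, where 0.0286 is the smallest possible.

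**Figure D1:**
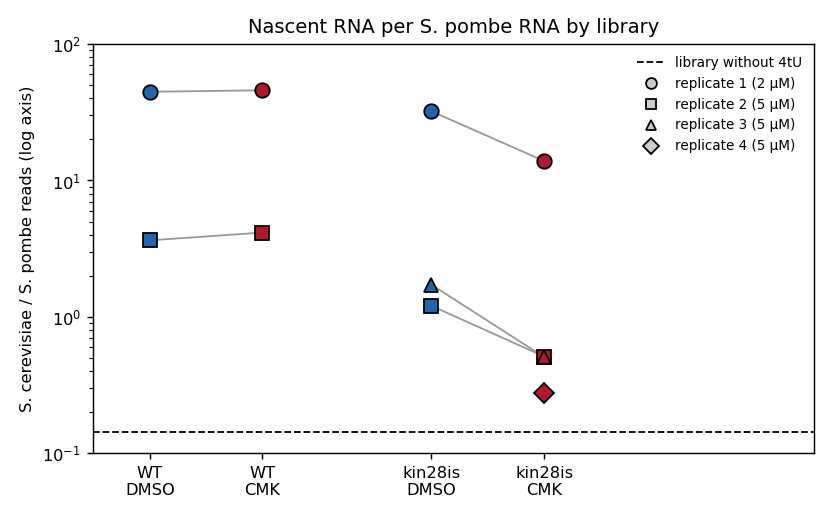
S. cerevisiae reads per S. pombe read (log axis) in each nascent library; symbols mark replicates, grey lines join libraries of the same number, and the dashed line is the library without 4tU at 0.144. All 3 kin28is lines go down while the 2 WT lines stay nearly level, and CMK replicate 4 lies nearest the dashed line.

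In WT cells CMK moved the same ratio by 0.04 log2 units at 2 µM (45.8 against 44.6) and 0.19 at 5 µM (4.15 against 3.64). The 3 kin28is pairs lay 1.51 log2 units below the 2 WT pairs on average and did not overlap them. The two-sided exact permutation test of that difference gave p = 0.1, the smallest possible with 3 against 2 pairs. In total RNA of kin28is cells the ratio was 1.24-fold lower with CMK at 2 µM and 0.41 log2 units higher at 5 µM. The ratio of the library without 4tU, 0.144, equalled 28.0%, 28.2% and 51.9% of the ratio in CMK replicates 2, 3 and 4. It equalled 11.9% and 8.33% in DMSO replicates 2 and 3, and 1.03% and 0.447% in the 2 µM pair. The library without 4tU belongs to the 5 µM set, and the ratio differed between sets in WT with DMSO as well (44.6 and 3.64). The shares given for the 2 µM pair are therefore not a measured background of those libraries. Within the 5 µM set the shares were larger in the 3 CMK libraries than in the 2 DMSO libraries.

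Gene by gene, levels per S. pombe RNA were tested with edgeR's quasi-likelihood test in the 5 µM libraries, 3 with CMK against 2 with DMSO. Of 5217 S. cerevisiae genes 3694 fell (70.8%) and 13 rose (0.249%), at a Benjamini-Hochberg adjusted p under 0.05, and the median gene was 3.19-fold lower. All genes of a library share its S. pombe total, so these calls are not independent of the 5 ratios above. Without DMSO replicate 3, which leaves 1 DMSO library, 536 genes were called lower. A fit over all 16 nascent libraries of both doses called 0 genes in either direction in edgeR, with or without a replicate term, at medians of -1.30 and -1.60, so the calls here and in the gene lists rest on the 5 µM libraries alone. Genes called higher numbered 3 without DMSO replicate 2, 3 without DMSO replicate 3, 5 without CMK replicate 2, 6 without CMK replicate 3 and 40 without CMK replicate 4. The same model applied to S. pombe genes, from the cells added before lysis, called 0 of 5020 (0%), with 533 at unadjusted p under 0.05 and a median of 0.02. These genes were scaled by their own totals, which sets their median near 0 and removes any shared shift. That fit therefore cannot check the S. pombe scaling and shows only gene-by-gene differences. Pair by pair, 99.6% of genes were lower at 2 µM, 85.6% in pair 2, 95.3% in pair 3 and 98.5% in CMK replicate 4.

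The pairs differed in how evenly genes moved. At 2 µM the middle 80% of genes spanned -1.58 to -0.93 on the log2 scale, close around a median 2.32-fold fall. At 5 µM that span was -2.11 to 0.33 in pair 2, -2.41 to -0.66 in pair 3 and -3.11 to -1.48 in CMK replicate 4. The 3 CMK libraries at 5 µM were also the 3 shallowest of the 7, and the part of depth in this spread was not tested.

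**Figure D2:**
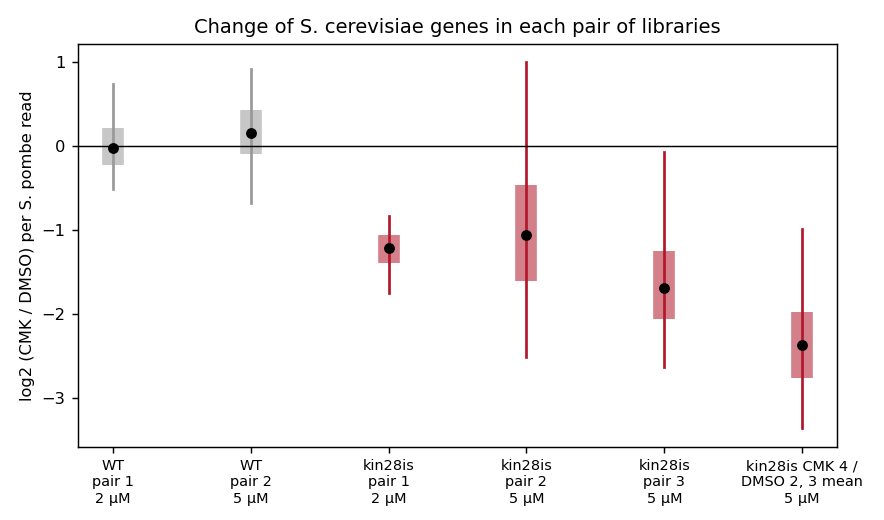
Log2 ratio of CMK to DMSO per S. pombe read over 5217 genes in each pair of libraries; dots are medians, bars the middle 50% and lines the 5th to 95th percentile of genes. WT pairs centre near 0, the 2 µM kin28is pair is narrow at -1.22, and the 5 µM pairs are wide with medians of -1.06, -1.69 and -2.37.

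KIN28 itself (YDL108W, chromosome IV, 267698 to 268699 in sacCer3) stood at 88.9, 77.4, 28.9 and 46.3 CPM in CMK replicates 1 to 4 and at 77.9, 67.9 and 65.9 CPM in the DMSO libraries. The allele changes the protein, so this level does not check the genotype label. Per 1e6 S. pombe reads it stood at 39.7, 14.7 and 12.8 with CMK at 5 µM against 82.0 and 114 with DMSO. These groups did not overlap, as held for 81.6% of all genes in the lower direction. KIN28 fell by 2.17 ± 0.65 (log2 ± SE, edgeR adjusted p = 0.00312), a call lost without DMSO replicate 3, and was not called relative to other S. cerevisiae genes (-0.49, adjusted p = 0.432).

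Most genes of the transcription machinery fell. Of 10 genes of Kin28 and TFIIH 9 fell, with a median of -1.48 beside -1.67 for all genes. Among them SSL2, the DNA translocase that opens the promoter, stood at 292, 268 and 161 per 1e6 S. pombe reads with CMK at 5 µM against 820 and 953 with DMSO. The member not called was TFB5 (-1.43, adjusted p = 0.184), which had 6 to 10 reads in those CMK libraries. All 12 subunits of RNA polymerase II fell (median -2.05). RPO21, the subunit that carries the CTD, stood at 606, 778 and 449 with CMK at 5 µM against 2158 and 2940 with DMSO, and RPB2, the other large subunit, at 606, 601 and 331 against 1821 and 2473. Of the other CTD kinases and phosphatases 9 of 11 fell (median -1.63), including FCP1, a serine 2 phosphatase, at -2.49 ± 0.55. Of 31 initiation factors and Mediator subunits 21 fell (median -1.67), and of 13 elongation factors 11 did (median -1.70), with the histone chaperone gene SPT16 at -1.99 ± 0.51 and the pausing factor gene SPT5 at -1.89 ± 0.52.

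The genes of co-transcriptional and later RNA steps moved likewise. All 5 capping and cap binding genes fell (median -1.86), from the methyltransferase gene ABD1 at -1.41 ± 0.58 to the cap-binding subunit gene STO1 at -2.44 ± 0.54. CET1, which makes the RNA triphosphatase of the capping enzyme, stood at 117, 88.1 and 41.7 per 1e6 S. pombe reads with CMK at 5 µM against 309 and 369 with DMSO. Of 32 splicing factor genes 25 fell (median -1.73; RSE1 at -2.47 ± 0.53), and of 25 genes of 3' end processing and termination 22 fell (median -1.72), with the helicase gene SEN1 at -2.31 ± 0.51 and NAB3 at -2.24 ± 0.49. Of 34 mRNA decay genes 31 fell (median -2.0). XRN1, the cytoplasmic 5' to 3' exonuclease, stood at 406, 481 and 252 against 1876 and 2700, and CDC39, the scaffold of the Ccr4-Not deadenylase, at 438, 778 and 601 against 2564 and 3858. Without DMSO replicate 3 the calls fell to 0 of 10 TFIIH genes, 2 of 12 polymerase subunits, 1 of 5 capping genes (STO1), 3 of 32 splicing genes and 7 of 34 decay genes, and ABD1 also lost its call without CMK replicate 2 or DMSO replicate 2. None of these lists had a member called relative to other S. cerevisiae genes. Their counts over the 5 libraries stood near or above the 70.8% of all genes and are read against it.

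How far a gene's level fell at 5 µM moved with its nascent read level in WT and with how much of it was recovered without label. The WT read level is a CPM value not divided by gene length, so it mixes length with transcription. Its median rose from 5.74 log2 CPM in the shortest quintile of coding length to 7.92 in the longest. By quintiles of nascent level in WT with DMSO, the median change was -0.93 in the lowest quintile, then -1.54, -1.68 and -1.78, and -1.96 in the highest. In the 2 µM pair the same quintiles ran from -1.27 to -1.21, so no such order appeared there. By quintiles of the level without 4tU as a share of the DMSO level, the median was -1.76, -1.82, -1.77, -1.64 and -1.11. The share and the change use the same DMSO libraries at 5 µM. A gene low there by noise gets a larger share and a smaller fall, so part of this order is built in. In the 2 µM pair, which holds neither of those libraries, the medians went from -1.11 in the first quintile to -1.37 in the last. In the last of these quintiles the level without 4tU equalled a median 31.1% of the DMSO level and 71.9% of the CMK level, against 3.83% and 12.3% in the first. Subtracting the level without 4tU gene by gene moved the median change from -1.66 to -2.08 over the 4840 genes above it in both groups. For 318 genes (6.10%) the CMK mean at 5 µM was at or below the level without 4tU.

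**Figure D3:**
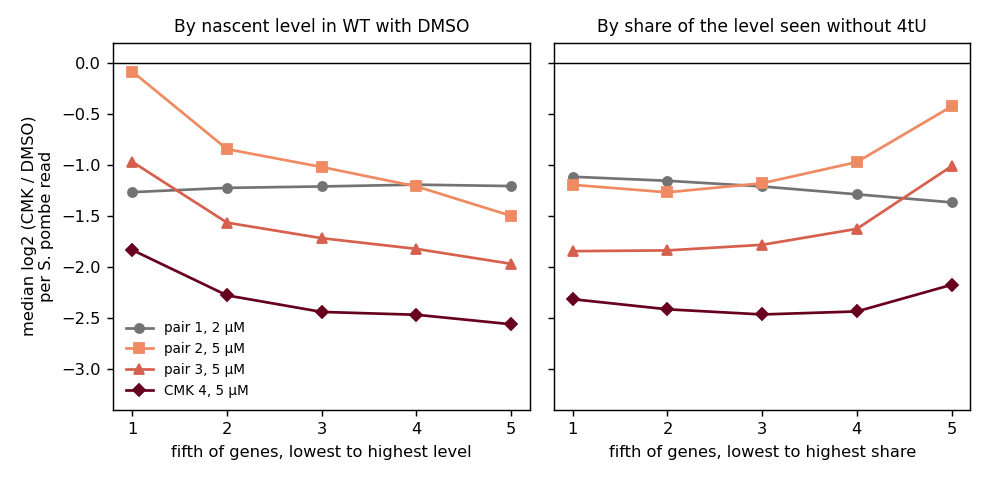
Median log2 ratio of CMK to DMSO per S. pombe read by quintiles of genes, ordered by nascent level in WT with DMSO (left) and by the share of the DMSO level recovered without 4tU (right), in each kin28is pair. The 5 µM lines go down with level and up in the quintile with the largest share without 4tU, whereas the 2 µM line runs from -1.27 to -1.21 on the left and from -1.11 to -1.37 on the right.

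Gene structure showed smaller differences. In the 5 µM fit, median changes by quintiles of coding length ran from -1.56 for the shortest genes (median 453 bases) to -1.83 for the longest (median 2841 bases). The 2 µM pair had the reverse order, from -1.32 for the shortest to -1.13 for the longest, and in CMK replicate 4 these medians were -2.40 and -2.37. By quintiles of uracil share the medians of the fit stayed between -1.71 and -1.64. The 153 intron-containing genes that do not encode ribosomal proteins had a median of -1.68, beside -1.69 for 4816 genes without intron. The 186 genes under 30 kb from a chromosome end had a median of -1.34, beside -1.69 for the others.

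A second scale set each gene against the rest of the S. cerevisiae transcripts, which removes the shared fall. On it 94 of 5207 genes fell (1.81%) and 126 rose (2.42%) at 5 µM. All 94 relative falls were also lower per S. pombe RNA, and 8 of the 126 relative rises were also higher. Directions were the same in every fit that left out 1 of the 5 libraries, but the number of calls was not. Rises and falls called numbered 2 and 0 without DMSO replicate 2, 2 and 1 without DMSO replicate 3, 182 and 135 without CMK replicate 2, 10 and 5 without CMK replicate 3, and 96 and 42 without CMK replicate 4. Of 47 relative calls of named genes, 45 were lost without DMSO replicate 2, 44 without DMSO replicate 3, 38 without CMK replicate 3 and 17 without CMK replicate 4, so a relative call below holds in few of these fits unless said otherwise. Of the falls, 56 lay in the highest quintile of WT DMSO level and 1 in the lowest. Of the rises, 78 lay in the lowest quintile.

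The promoters of OSI1, which had among the largest falls on both scales, and of YNL134C, one of the 4 genes of highest length-scaled level (RPKM) with DMSO at 5 µM, are shown because both hold a site of the oxidative stress factor Yap1. Each printed promoter runs from 250 bases before the annotated start codon to 50 after it, 5' to 3' on the coding strand, read from the R64 genome (sacCer3). In OSI1 and YNL134C capitals mark that site, TTACTAA, on either strand.
OSI1 (chrXI:304864-305163, + strand): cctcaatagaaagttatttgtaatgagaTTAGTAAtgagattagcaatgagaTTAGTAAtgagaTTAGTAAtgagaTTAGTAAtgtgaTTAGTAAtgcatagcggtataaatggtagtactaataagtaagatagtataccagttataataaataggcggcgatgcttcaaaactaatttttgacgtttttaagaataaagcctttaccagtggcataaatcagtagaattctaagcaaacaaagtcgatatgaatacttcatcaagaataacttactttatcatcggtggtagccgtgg
YNL134C (chrXIV:373532-373831, - strand): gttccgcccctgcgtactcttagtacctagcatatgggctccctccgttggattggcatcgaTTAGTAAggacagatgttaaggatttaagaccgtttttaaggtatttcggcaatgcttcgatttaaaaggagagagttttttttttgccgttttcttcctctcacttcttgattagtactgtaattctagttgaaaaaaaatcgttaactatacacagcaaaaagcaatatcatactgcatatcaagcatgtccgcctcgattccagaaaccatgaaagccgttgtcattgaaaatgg

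OSI1 (YKL071W, chromosome XI, 305114 to 305884), a gene induced by oxidative stress, held 5 matches in a row between 222 and 156 bases before its start codon. No other of 5241 promoters held as many, and 7.88% held at least 1. YNL134C, which encodes an NADH-dependent reductase, held 1. A match is a stretch of letters and does not show that the factor was bound. Per 1e6 S. pombe reads OSI1 stood at 84.1, 73.4 and 46.1 with CMK at 5 µM against 966 and 1028 with DMSO, and at 5.06 without 4tU. These groups did not overlap and both lay above the level without 4tU. OSI1 fell by 3.89 ± 0.53 per S. pombe RNA (adjusted p = 8.77e-10), 14.8-fold. Relative to other genes it fell by 2.20 ± 0.26 (adjusted p = 0.00252), from 801 and 596 CPM to 164, 144 and 166 CPM. The relative call was lost without DMSO replicate 2 (adjusted p = 0.102) and held in the other 4 fits. At 2 µM OSI1 stood at 1517 CPM with CMK and 1315 CPM with DMSO, a relative change of 0.21.

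Of 23 Yap1 target genes 21 fell per S. pombe RNA (median -2.44), and 21 of 23 had a relative change below 0 (median -0.72), of which 1, OSI1, was called. OYE2, an NADPH oxidoreductase gene and another of the 4 genes of highest RPKM, stood at 1349, 1036 and 742 per 1e6 S. pombe reads against 6922 and 8519. YNL134C, also on the list, stood at 1084, 968 and 748 against 5240 and 6628. At 2 µM the median of this list relative to other genes was 0.08. Without DMSO replicate 3, 18 of the 23 were still called lower per S. pombe RNA. The list had little RNA without 4tU: a median 6.51% of the CMK level, beside 31.8% for all genes. Of the 23 promoters 9 held TTACTAA.

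Histone genes had the largest median fall of the 34 lists, -2.97 per S. pombe RNA and -1.23 relative to other genes. All 10 fell per S. pombe RNA (8 were called without DMSO replicate 3) and 5 fell relative to other genes: HTA2, HTB1, HTB2, HHT2 and HHF2. HTB2, an H2B gene, stood at 244, 126 and 124 CPM with CMK at 5 µM against 599 and 492 CPM with DMSO, so the groups did not overlap, as held for 16.7% of genes in the lower direction on this scale. HHT2, an H3 gene, stood at 232, 226 and 236 CPM against 530 and 536 CPM. At 2 µM the list's relative median was -0.23 and its members were split: 5 lay below 0 (HHT1 at -2.62, HTA2 at -0.73, HHO1 at -0.68, HTZ1 at -0.62 and HTA1 at -0.52) and 5 above, among them HTB2, with 804 CPM with CMK and 583 CPM with DMSO, and HHT2, with 1234 and 1130 CPM. HTA2, an H2A gene, had 1, 3 and 3 reads in the CMK libraries at 5 µM, and HHT1, an H3 gene, had 10, 0 and 0. Reads of HTA1 and HTA2, and of the other histone pairs, come from near-identical sequences and their split is uncertain. Without 4tU the level of HTB2 was 703 CPM, above all 3 CMK libraries at 5 µM, and over the list the median gene's level per S. pombe RNA without 4tU was 100.4% of its CMK level.

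G2/M and proteasome genes had medians below that of all genes, and G1/S genes did not. Of 19 G2/M genes 18 fell per S. pombe RNA (median -2.09; relative median -0.48) and 2 fell relative to other genes. These were CLB2, the mitotic cyclin gene, at 86.7, 94.5 and 81.0 CPM against 173 and 185 CPM, and SWI5, a transcription factor gene of late mitosis, at 95.9, 52.5 and 78.1 CPM against 162 and 134 CPM. Per S. pombe RNA the level without 4tU equalled 104% of the mean CMK level at 5 µM for CLB2, and a median 53.3% over the G2/M list. Of the G2/M promoters 10 of 19 held the forkhead letters GTAAACA, beside 6.98% of all promoters. Of 31 G1/S genes 20 fell per S. pombe RNA (median -1.42) and 25 lay above 0 relative to other genes (median 0.28). All 33 proteasome genes fell (median -2.04) and 30 of 33 had a relative change below 0 (median -0.34). The catalytic beta subunit gene PUP1 stood at 30.9, 65.7 and 73.8 CPM against 184 and 134 CPM, and PUP3, another beta subunit gene, at 58.8, 123 and 94.1 CPM against 190 and 209 CPM. At 2 µM the relative median of the proteasome list was 0.10.

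The promoters of 2 ribosome biogenesis genes are shown because this list is the one most marked by its promoter letters. Capitals mark the PAC element GATGAG and the RRPE element AAAAATTTT on either strand; the elements do not overlap each other, and the 2 PAC matches of NOP15 share 1 base.
UTP20 (chrII:227386-227685, + strand): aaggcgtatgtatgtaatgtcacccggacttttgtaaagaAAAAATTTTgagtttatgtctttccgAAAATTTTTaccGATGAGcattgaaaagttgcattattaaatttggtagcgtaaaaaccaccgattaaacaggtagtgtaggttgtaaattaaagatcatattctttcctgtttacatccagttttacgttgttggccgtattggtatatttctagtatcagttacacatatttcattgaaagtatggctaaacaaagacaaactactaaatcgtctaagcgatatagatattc
NOP15 (chrXIV:418439-418738, - strand): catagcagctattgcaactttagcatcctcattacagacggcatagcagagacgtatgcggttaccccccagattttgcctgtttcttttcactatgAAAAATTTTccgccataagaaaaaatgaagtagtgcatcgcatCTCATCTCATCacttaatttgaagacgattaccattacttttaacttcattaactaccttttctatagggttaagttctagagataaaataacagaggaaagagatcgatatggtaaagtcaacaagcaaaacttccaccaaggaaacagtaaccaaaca

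Of 95 ribosome biogenesis promoters 89 held GATGAG, beside 20.3% of all promoters, and 62 held AAAAATTTT, beside 7.67%. Of 94 such genes tested 84 fell per S. pombe RNA (median -1.85), and 2 fell relative to other genes, UTP4 and NOB1 (list median -0.26). UTP20, a small-subunit processome gene, stood at 546, 641 and 362 per 1e6 S. pombe reads with CMK at 5 µM against 2897 and 3207 with DMSO. NOP15, a large-subunit assembly gene, stood at 22.2, 49.4 and 24.8 against 260 and 263. Neither gene's groups overlapped. The level without 4tU, 193 for UTP20 and 33.6 for NOP15, lay below the CMK values for UTP20 and above those of CMK replicates 2 and 4 for NOP15. Over all genes the median change was -1.69 with GATGAG and -1.68 without, and -1.77 with AAAAATTTT and -1.67 without.

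Cytosolic ribosomal protein genes had a smaller median change. Of 133 tested 51 fell per S. pombe RNA (median -1.04) and none rose, and 115 had a relative change above 0 (median 0.59), with none called. Their relative medians were 0.94 and 0.80 in pairs 2 and 3 and 0.02 in CMK replicate 4, and -0.14 at 2 µM. The level without 4tU equalled a median 75.8% of their CMK level at 5 µM, beside 31.8% for all genes, and its part in that change was not tested. With introns (85 genes) the median was -1.03 and without (48 genes) -1.09. Of 66 mitochondrial ribosomal protein genes 61 fell (median -1.86).

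Counts of stress and metabolic genes are read against the 70.8% of all genes that fell. Of 20 chaperone genes of Hsf1 18 fell (median -1.96), and HSP82, the inducible Hsp90 gene, stood at 1582, 1772 and 1211 per 1e6 S. pombe reads against 9170 and 9309. Of 21 general stress genes of Msn2/4 11 fell (median -1.44), and 17 lay above 0 relative to other genes (median 0.35). By pair, that list's relative median was -0.07 at 2 µM, -0.07 in pair 2 and 0.40 in pair 3, and 0.60 in CMK replicate 4. HSP104, a disaggregase gene, stood at 2257, 3255 and 2695 against 7772 and 8520, falling by 1.58 ± 0.40. Without DMSO replicate 3, 12 Hsf1 and 1 Msn2/4 genes were called. Counts above the share of all genes were 17 of 19 aminoacyl-tRNA synthetase genes, 15 of 16 glycolysis genes and 8 of 9 pleiotropic drug resistance genes. Near that share were 30 of 42 genes of the TCA cycle and respiration, 18 of 24 ergosterol genes and 12 of 16 M/G1 genes. Below it were 10 of 21 sulfate and methionine genes, 8 of 15 Pho4 phosphate genes and 2 of 7 hexose transporter genes. Of 44 amino acid synthesis genes of Gcn4 36 fell and 1, ARO4, rose, and HIS1, the first enzyme gene of histidine synthesis, fell on both scales, from 341 and 396 CPM to 189, 126 and 117 CPM. For HIS1 the level without 4tU, per S. pombe RNA, equalled 148% of the mean CMK level at 5 µM. Of the a-specific and haploid genes 7 of 9 fell (median -1.55), among them STE6, the a-factor exporter gene, at 259, 287 and 201 against 637 and 1093.

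**Figure D4:**
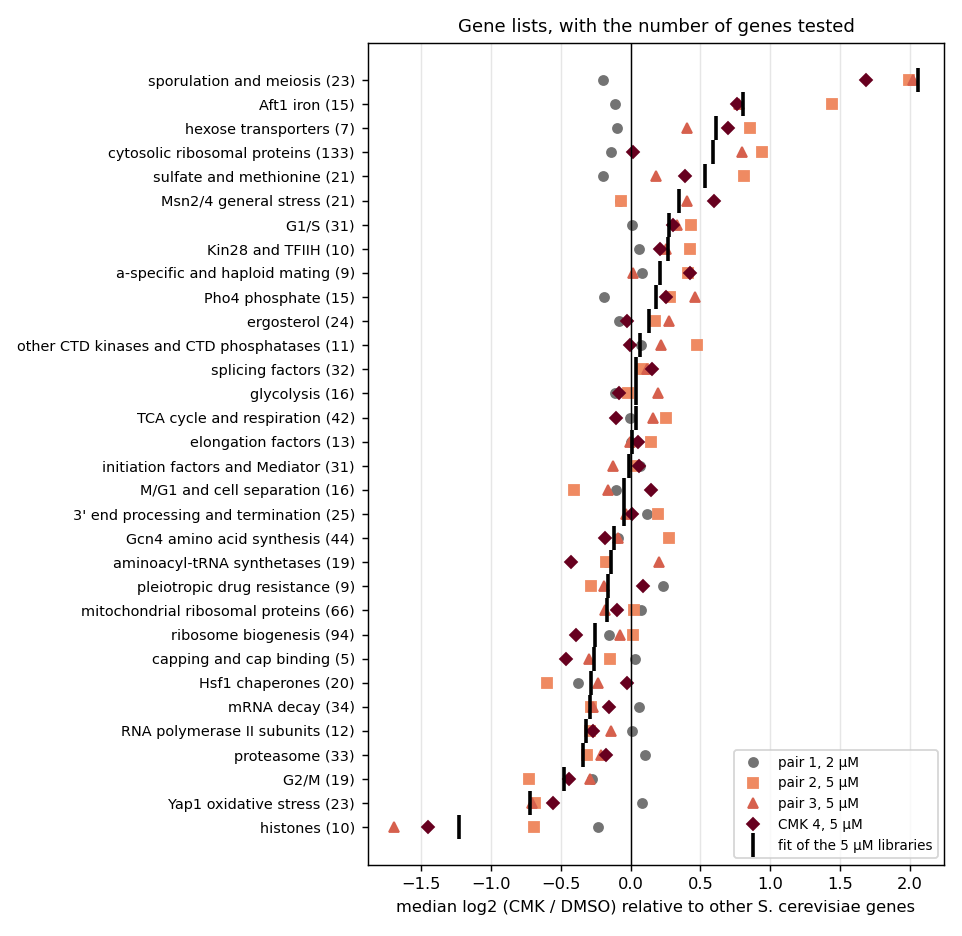
Median log2 ratio of CMK to DMSO relative to other S. cerevisiae genes for lists with at least 5 genes tested, in each pair and in the fit of the 5 µM libraries. Histone, Yap1 and G2/M genes lie lowest and sporulation and iron genes highest at 5 µM, while every 2 µM point of the lists drawn lies between -0.37 and 0.23.

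Relative to other genes, the largest falls that also pointed down at 2 µM were spread over different functions. They were HTA2, the RNA polymerase III subunit gene RPC25, the RNA-binding protein gene THO1, the purine synthesis gene ADE17, the membrane-bound regulator gene MGA2, ZWF1, GNP1 and ITR1. ZWF1 encodes glucose-6-phosphate dehydrogenase, the entry to the pentose phosphate pathway, and stood at 254, 129 and 139 CPM with CMK at 5 µM against 548 and 509 CPM. GNP1, a glutamine permease gene, stood at 58.8, 89.3 and 66.6 CPM against 203 and 231 CPM, and ITR1, the myo-inositol transporter gene, at 139, 165 and 140 CPM against 439 and 413 CPM. Much of what remained with CMK may be RNA recovered without label. Per S. pombe RNA the level without 4tU equalled 150% of the mean CMK level at 5 µM for ADE17 and 103% for ITR1. It equalled 76.2% for GNP1, 75.9% for MGA2 and 63.9% for HTA2, beside a median 31.8% for all genes. This share is not given here for RPC25, THO1 and ZWF1. ADE17 was the member of this group with the largest fall at 2 µM as well: 31.6 CPM with CMK and 96.7 CPM with DMSO, a relative change of -1.61. For ZWF1 the 2 µM libraries hardly differed, at 631 and 645 CPM. YOR302W, the short open reading frame upstream of CPA1 and the gene with the highest RPKM with DMSO at 5 µM, fell from 578 and 662 CPM to 282, 270 and 276 CPM. Levels of such short frames share reads with the transcript they belong to.

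Rises relative to other genes divided by their level without 4tU. Of the 126, 74 had all 3 CMK libraries at 5 µM above the library without 4tU in CPM, 41 of them by more than 2 times, and for 25 the library without 4tU lay above all 3. CPM is a share of S. cerevisiae reads. Their ratio to S. pombe reads was 0.144 without 4tU and 0.277 to 0.513 in those CMK libraries, so equal CPM is not equal RNA per S. pombe read. ATG31, an autophagy gene, stood at 220, 200 and 227 CPM with CMK at 5 µM, against 20.9 and 25.4 CPM with DMSO and 47.9 CPM without 4tU. It rose by 3.17 ± 0.29 relative to other genes (adjusted p = 0.00034), and per S. pombe RNA the change was 1.43 ± 0.72 (adjusted p = 0.0654). YLR342W-A, a short open reading frame (chromosome XII, 815810 to 815983), stood at 297, 397 and 507 CPM against 40.3 and 44.4 CPM, and 60.5 CPM without 4tU. It rose relative to other genes by 3.20 ± 0.32 (adjusted p = 0.000633) and per S. pombe RNA by 1.40 ± 0.65 (adjusted p = 0.0438). The CPM groups did not overlap for either gene, as held for 22.2% of genes in the higher direction, and per S. pombe RNA the same held for 0.422%. These were the 2 of 126 relative rises still called in each of the 5 fits that left out a library. DIN7, a DNA repair nuclease gene, stood at 179, 194 and 219 CPM against 27.0 and 33.7 CPM, with 12.6 CPM without 4tU, and was called in 3 of the 5. At 2 µM the CMK and DMSO libraries stood at 11.8 and 13.3 CPM for ATG31, 21.3 and 21.1 CPM for YLR342W-A and 11.6 and 18.8 CPM for DIN7. ATG31 and DIN7 were chosen for mention after their values were seen.

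Iron genes of the factor Aft1 had the smallest median fall per S. pombe RNA of the lists with 10 or more genes, sporulation genes excepted. Of 15, 6 fell per S. pombe RNA (median -0.84), all 15 lay above 0 relative to other genes (median 0.80), and 3 rose on that scale: SIT1, ARN1 and FRE2 (the last chosen after its values were seen). The promoter of SIT1 is shown with the Aft1 site TGCACCC on either strand in capitals, a motif searched after the gene values were seen.
SIT1 (chrV:27407-27706, + strand): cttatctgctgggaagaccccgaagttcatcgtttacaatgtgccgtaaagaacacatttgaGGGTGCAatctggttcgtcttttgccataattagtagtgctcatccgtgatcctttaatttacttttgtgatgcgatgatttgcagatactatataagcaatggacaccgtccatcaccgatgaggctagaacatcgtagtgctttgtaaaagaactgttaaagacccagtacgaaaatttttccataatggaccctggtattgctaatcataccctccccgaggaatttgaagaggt

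The motif was in 7 of 15 iron gene promoters and in 1.34% of all promoters. SIT1, a siderophore transporter gene, stood at 823, 302 and 320 CPM with CMK at 5 µM against 88.0 and 80.5 CPM with DMSO, and 113 CPM without 4tU. ARN1, another siderophore transporter gene, stood at 842, 420 and 462 CPM against 145 and 124 CPM, and 98.2 CPM without 4tU. In both genes CMK replicate 2 was the highest library. Without either DMSO library the calls for SIT1 and ARN1 were lost, with changes of 1.88 to 2.65 and 1.71 to 2.19 over the 5 fits. The high-affinity uptake pair FET3 and FTR1 was not called on that scale: FET3 stood at 721, 515 and 617 CPM against 578 and 584 CPM, a relative change of 0.02 (adjusted p = 0.974), and FTR1 at 699, 462 and 567 CPM against 515 and 520 CPM. At 2 µM SIT1 stood at 42.5 CPM with CMK and 58.9 CPM with DMSO.

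**Figure D5:**
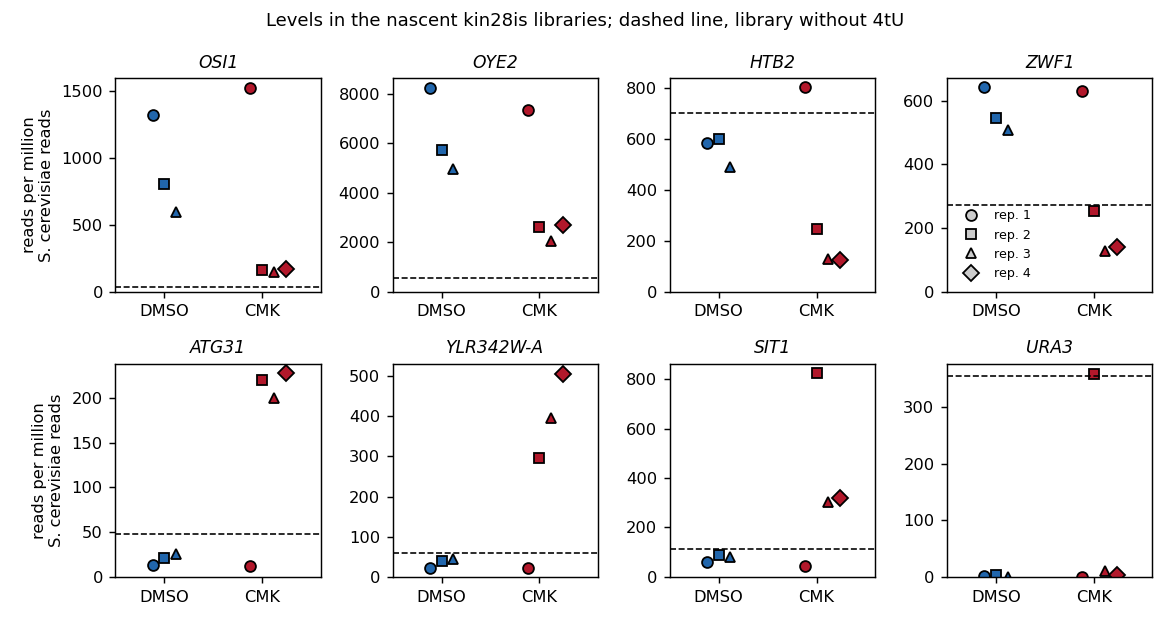
CPM of 8 genes in the 7 kin28is libraries, with a dashed line at the level without 4tU. OSI1, OYE2, HTB2 and ZWF1 are lower with CMK in the 5 µM libraries, while in replicate 1 CMK and DMSO differ little or CMK is higher; ATG31, YLR342W-A and SIT1 are higher in the same 3; URA3 is high in CMK replicate 2 alone.

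Sporulation and meiosis genes, which growing haploid cells keep silent, summed to 854, 927 and 602 CPM in CMK replicates 2 to 4, to 244 and 328 CPM with DMSO and to 942 CPM without 4tU. Of 23 tested 2 rose and 1 fell per S. pombe RNA (median 0.38), and 5 rose relative to other genes (median 2.06). Per S. pombe RNA the level without 4tU equalled a median 36.6% of the CMK level and 42.3% of the DMSO level of these genes at 5 µM. SPR3, a septin gene of sporulation, stood at 52.6, 42.0 and 34.7 CPM against 1.05 and 3.17 CPM, and 101 CPM without 4tU. MCH2, a putative monocarboxylate carrier gene, stood at 61.9, 47.3 and 14.5 CPM against 0.627 and 3.57 CPM, and 70.5 CPM without 4tU. GIT1, a glycerophosphoinositol transporter gene, stood at 133, 102 and 94.1 CPM against 8.57 and 7.14 CPM, and 108 CPM without 4tU. Of 13 genes called higher per S. pombe RNA, 11 had a CPM without 4tU more than 2 times both DMSO values at 5 µM. That count compares shares of S. cerevisiae reads and was not made per S. pombe RNA. Per S. pombe RNA the level without 4tU was below the mean DMSO level for YLR342W-A (13.9%), ARO4 (38.2%), RHO2 (65.1%) and CMC1 (93.2%). It was above that level for GIT1 (137%), MCH2 (293%), SPR3 (430%) and URA3 (3111%). None of the 13 was higher in the 2 µM pair.

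A few genes were very high in some shallow libraries. CMC1, a mitochondrial protein gene, stood at 3556, 2813 and 889 CPM in CMK replicates 2 to 4, at 81.9 and 68.2 CPM in the DMSO libraries and at 703 CPM without 4tU. RHO2, a small GTPase gene, stood at 2222, 1975 and 530 CPM, 73.6 and 77.4 CPM, and 504 CPM in the same order. In WT, DMSO replicate 2 had 2602 CPM of CMC1 and 3130 CPM of RHO2, against 48.2 and 76.4 CPM in its CMK partner. In WT, then, the DMSO library was the high one for both genes, which, like ARO4, were chosen after their values were seen. URA3, whose locus is among the markers of this strain background, was called higher on 1 library: it had 116, 4 and 2 reads with CMK at 5 µM, 13 and 0 with DMSO and 141 without 4tU, and the call was lost without CMK replicate 2.

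Calls at 5 µM were set beside the 2 µM pair. Of the 94 relative falls at 5 µM, 65 pointed down in the 2 µM pair (69.1%), where 51.0% of all genes did. Of the 126 relative rises 63 pointed up, where 49% of all genes did. As a description, relative changes across 5207 genes had a Spearman coefficient of -0.005 between pairs 1 and 2, -0.02 between pairs 1 and 3 and 0.50 between pairs 2 and 3. No pair shares a library with another, but pairs 2 and 3 share their dose set and a similar depth, and genes are not independent replicates.

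The CMK change was also set beside that of WT at 5 µM, where WT has 1 library per treatment (830598 reads with DMSO, 7111850 with CMK). The fit assumes that these lone libraries vary like the other groups, which the data cannot check. Its calls therefore compare the kin28is libraries with this WT pair and do not establish a difference between strains. Over 5217 genes the median difference of the log2 changes per S. pombe RNA, kin28is minus WT, was -1.93. With 1 WT library per treatment, the numbers of genes called do not show how many genes differed. Per S. pombe RNA the CMK change in kin28is was called lower than in the WT pair for 17 genes (0.326%) and higher for 4 (0.0767%). Relative to other genes it differed for 0 genes in edgeR (0%), with 442 at unadjusted p under 0.05. Among the genes described here that were called lower, OSI1 had the largest difference: in WT it stood at 783 CPM with DMSO and 1241 CPM with CMK, and the difference of the log2 changes was -4.79 ± 0.99 (adjusted p = 0.00176). YNL134C (-3.88 ± 0.83), HTB2 (-4.27 ± 1.03), OYE2 (-3.21 ± 0.78) and ITR1 (-3.82 ± 1.01) were also called lower. CMC1, RHO2 and ARO4 were called higher, with smaller adjusted p than those 5, and in each the WT DMSO library was the high one. Total RNA of kin28is cells had 2 pairs of libraries, replicate 1 at 2 µM and replicate 2 at 5 µM. They were fitted together with a replicate term. Relative to other genes 1051 of 5216 were lower and 960 higher at adjusted p under 0.05. Per S. pombe RNA 99 genes were lower (1.89%) and 13 higher (0.249%). Among the lower were OSI1 (-2.28 ± 0.35), OYE2 (-2.06 ± 0.34), YNL134C (-2.12 ± 0.34), HTB2 (-1.90 ± 0.35) and ZWF1 (-1.88 ± 0.35), while the total RNA of RPO21 changed by -0.07 ± 0.32 (adjusted p = 0.928).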

How the data were processed

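Nascent RNA was measured in 7 kin28is libraries of the series' 34. The authors deposited whole-number read counts per gene for both yeasts in 1 table, with 10533 features. Tools listed in the submitters' processing notes are HTSeq 0.6.0, STAR 2.3.0 and CASAVA 1.8.2, with build sacCer3; their roles and strand use are not given in the sources used here, so overlapping genes and near-identical copies are uncertain. RefSeq R64 gave symbols, positions and promoters for 5241 of 5368 S. cerevisiae open reading frames.

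Counts were fitted with edgeR 4.0.16 in R 4.3.3 (glmQLFit, glmQLFTest; filterByExpr minimum count 10; Benjamini-Hochberg adjustment at 0.05). The fit held the 10 nascent WT and kin28is libraries at 5 µM, in 6 groups, with 4 residual degrees of freedom. Each library was scaled by its S. pombe reads (TMM on those genes alone), or, for relative changes, by its S. cerevisiae reads (TMM on theirs). Pair changes added 0.5 counts before the log2. Total RNA was fitted over all WT and kin28is libraries with a replicate term, a choice made after the data were examined.

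Counts were simulated with 5017 genes unchanged for the S. pombe-scaled fit and 5007 for the relative fit. The S. pombe-scaled fit recovered 92% of 50 genes lowered by 3 log2 units, 58% of 50 by 2 and 4% of 50 by 1. The relative fit recovered 96%, 90% and 42%. Of 50 genes raised by 1 log2 unit they recovered 2% and 36%. In the data most genes fell per S. pombe RNA, so recovery there may differ from these values. No 2 libraries of a group agreed within counting noise (lowest chi-square per degree of freedom 5.86). The members, gene lists and tests were chosen with earlier results of these data known. Named genes were KIN28, all TFIIH, capping and histone genes, the 8 largest falls per scale, up to 6 rises per S. pombe RNA and 8 relative rises (called, groups not overlapping, same direction at 2 µM, mean of at least 10 per 1e6 reads), up to 2 called members per list and scale, and the 4 highest by RPKM; others are said to be chosen later. Alternatives were a replicate block, all 16 nascent libraries, the 5 libraries alone, other scalings, DESeq2 1.42.0, count filters, low-background genes and leaving out each library.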

Additional observations from a re-analysis of the deposited data

Results flagged for a closer look

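Among the 4 CMK libraries, 117 values were tested for a library that stands far from the others, and 15 had one: CMK replicate 1 in 14 and CMK replicate 2 in 1. Chance gives such a library in about 1 in 20 independent groups of values, but the values here share the same 4 libraries. Most are levels of genes named in the text, many picked for calls made with CMK replicates 2 to 4 and without replicate 1. That choice can favour genes in which replicate 1 stands apart, so the count cannot be compared with the chance rate. Replicate 1 is also the library of the other dose and set, so dose, set and choice of genes cannot be told apart. Its log2 ratio of the species' reads was 3.80. Its CPM stood apart for ASN1 (2380), CLN2 (101), CYS4 (699.5), HHF2 (488), HHT2 (1234), HXK2 (800.3), OSI1 (1517), OYE2 (7352), PUP3 (441), RPB2 (1798), UTP4 (319), YOR302W (200.0) and ATG31 (11.8). CMK replicate 2 stood apart for URA3, at 359 CPM.

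For 8 genes of the text the CMK change per S. pombe RNA was called different between kin28is and the WT pair at 5 µM by the edgeR test of the difference itself (adjusted p under 0.05). The difference in log2 change, kin28is minus WT, was -4.79 for OSI1, -4.27 for HTB2, -3.88 for YNL134C, -3.82 for ITR1 and -3.21 for OYE2. It was 8.96 for CMC1, 7.91 for RHO2 and 4.85 for ARO4, whose levels in the WT DMSO library were 2602, 3130 and 1547 CPM. WT has 1 library per treatment there, assumed to vary like the other groups, so these calls do not establish a difference between strains.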

How the results depend on the processing

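The mean log2 ratio over pairs (-1.40) was -2.02 unpaired with no replicate block, -1.32 with TMM-scaled totals, -1.62 with the ratio without 4tU subtracted, and -1.50 to -1.22 without 1 replicate. The median change per S. pombe RNA (-1.67) stayed between -2.08 (level without 4tU subtracted gene by gene, an alternative chosen after seeing the data) and -1.30 (all 16 nascent libraries with the replicate block). Same-numbered libraries deviated together with r = 0.64, 0.065 and 0.52 for replicates 1, 2 and 3. The gene fits reported carry no replicate block, and these values do not justify leaving it out. The ratio is paired by number only to separate the doses. With the replicate block at 5 µM, 2559 genes were lower and 20 higher per S. pombe RNA, and 157 lower and 210 higher relatively. Over all 16 libraries, 0 genes were called in either direction on either scale in edgeR, with or without the block. At unadjusted p under 0.05 there were 3 (no block) and 518 (block) per S. pombe RNA, and 477 and 511 relatively. Without the block there, GIT1 (-0.68), YLR342W-A (-0.43), RHO2 (-0.16) and ARO4 (-0.97) changed sign per S. pombe RNA, and the cause was not tested. DESeq2 called 164 lower and 241 higher relatively. Among low-background genes 1292 were lower per S. pombe RNA and 9 relatively; this filter reads the CMK level and so removes fallen genes by construction. Leaving out 1 library gave 536 to 3861 lower and 3 to 40 higher per S. pombe RNA, and 0 to 135 lower and 2 to 182 higher relatively. The lowest counts came without a DMSO library, where the lone DMSO library is assumed to vary like the other groups. Named genes lost their relative call in 45 of 47 cases without DMSO replicate 2, 44 without DMSO replicate 3 and 38 without CMK replicate 3. The 323133 to 690984 S. cerevisiae reads of the CMK libraries at 5 µM limit genes of low level.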
